A study of Mus musculus with 6 samples.

Results

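The mitochondrial respiratory chain is built from 4 protein complexes, and the genes described here are its subunits encoded in the nucleus. They were taken from the array annotation by symbol (Nduf genes of the A, B, C, S and V series, Sdha to Sdhd, Uqcr genes and Cox4 to Cox8 genes), with the brightest row kept where a gene had several. This gave 62 of the 19938 genes measured. Of these, 34 belong by name to complex I, 4 to complex II, 8 to complex III and 16 to complex IV. The tissue was lumbar spinal cord dissected from mouse embryos at E15.5, strain SV129. There were 3 wild-type samples and 3 samples of genotype TNC -/-, labelled as knockout for tenascin-C, a secreted glycoprotein of the extracellular matrix. Each sample was hybridised to 1 array, and the sources used here name no other allele or agent. The samples of a group are labelled as biological replicates, and which part of Tnc the allele removes, the litters of the embryos and any batches are unstated in those sources. Values are log2 expression as deposited, so that 1 unit is a doubling, and each trio of values below is given in the order of replicates 1, 2 and 3.

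Complex I (NADH dehydrogenase) and complex II (succinate dehydrogenase) pass electrons from NADH and succinate to ubiquinone. Complex III (the cytochrome bc1 complex) passes them on to cytochrome c, and complex IV (cytochrome c oxidase) passes them to oxygen. Complexes I, III and IV pump protons that drive the ATP synthase. Complexes I, III and IV also contain subunits encoded in mitochondrial DNA, whereas all subunits of complex II are nuclear. Neurons depend heavily on this chain, and several subunits of complex IV exist as a widely expressed form and a form restricted to heart and muscle, lung or testis. The annotation symbol places Ndufa4 with complex I, although its protein is now counted as a subunit of complex IV.

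Transcription of these genes is known to involve the factors NRF1, GABPA (of the ETS family) and YY1. RefSeq promoter windows of build GRCm38.p6, from 250 bases before to 50 bases after the gene start, were found for 50 of the 62 genes. In the first listed window of each gene, searched on both strands, the NRF1 motif (GCGCA, any base, GCGC) was present in 10 of 50 (20.0%), against 7.27% of the 15563 windows of all genes measured. The ETS motif CCGGAAG was in 11 windows (22.0%, against 12.5%) and the YY1 motif AAGATGGC in 7 (14.0%, against 3.43%). The SP1 motif GGGCGG was in 20 (40.0%, against 49.9%) and TATAAA in 6 (12%, against 12.1%). All 7 windows with the YY1 motif belonged to complex I, which supplied 31 of the 50 windows (22.6% of the 31). Complexes II, III and IV supplied only 3, 5 and 11. At least 1 of the NRF1, ETS and YY1 motifs was present in 25 of the 50 windows, and matches of different motifs overlapped in 0 of them. These shares describe letters in the windows and were not tested.

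The following 6 windows are shown 5′ to 3′ with NRF1, ETS and YY1 matches in capitals. Ndufa3 was the only member whose groups did not overlap, Ndufs6 had among the widest spans over the arrays and carries an NRF1 and a YY1 match, and Sdhd represents complex II. Cox6a1 has 2 NRF1 matches and 1 ETS match, and Cox7a2 with Cox7a1 are the widely expressed and the heart and muscle form of 1 subunit, neither with a match.
Ndufa3 (chr7:3617123-3617422, plus strand): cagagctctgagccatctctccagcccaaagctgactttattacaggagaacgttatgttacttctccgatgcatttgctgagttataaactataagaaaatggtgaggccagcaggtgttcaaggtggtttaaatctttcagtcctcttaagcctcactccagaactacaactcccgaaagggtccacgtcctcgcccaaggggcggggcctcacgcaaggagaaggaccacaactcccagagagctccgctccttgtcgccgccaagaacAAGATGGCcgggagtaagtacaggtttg
Ndufs6 (chr13:73328433-73328732, minus strand): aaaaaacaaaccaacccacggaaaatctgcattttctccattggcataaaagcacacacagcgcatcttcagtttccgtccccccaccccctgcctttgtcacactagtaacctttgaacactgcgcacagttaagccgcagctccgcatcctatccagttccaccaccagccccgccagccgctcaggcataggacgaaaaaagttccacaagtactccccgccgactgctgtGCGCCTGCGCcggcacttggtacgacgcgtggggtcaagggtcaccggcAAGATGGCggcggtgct
Sdhd (chr9:50603800-50604099, minus strand): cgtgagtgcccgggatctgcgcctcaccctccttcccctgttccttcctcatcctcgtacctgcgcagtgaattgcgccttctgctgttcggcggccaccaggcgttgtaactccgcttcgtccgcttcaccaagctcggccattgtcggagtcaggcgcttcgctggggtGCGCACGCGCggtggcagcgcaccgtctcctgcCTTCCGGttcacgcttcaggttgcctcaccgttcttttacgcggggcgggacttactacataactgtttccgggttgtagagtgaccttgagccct
Cox6a1 (chr5:115348909-115349208, minus strand): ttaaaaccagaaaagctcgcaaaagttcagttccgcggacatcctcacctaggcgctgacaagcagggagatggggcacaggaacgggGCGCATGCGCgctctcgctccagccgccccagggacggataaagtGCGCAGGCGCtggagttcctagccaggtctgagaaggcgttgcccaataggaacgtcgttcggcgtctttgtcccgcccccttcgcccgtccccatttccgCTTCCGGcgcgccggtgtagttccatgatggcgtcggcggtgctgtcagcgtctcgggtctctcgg
Cox7a2 (chr9:79759804-79760103, minus strand): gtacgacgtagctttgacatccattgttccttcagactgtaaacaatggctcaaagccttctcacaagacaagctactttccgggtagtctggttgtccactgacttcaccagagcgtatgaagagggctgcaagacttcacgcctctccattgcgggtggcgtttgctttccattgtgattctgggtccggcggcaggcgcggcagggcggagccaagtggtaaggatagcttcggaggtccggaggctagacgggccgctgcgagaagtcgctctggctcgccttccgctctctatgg
Cox7a1 (chr7:30183921-30184220, plus strand): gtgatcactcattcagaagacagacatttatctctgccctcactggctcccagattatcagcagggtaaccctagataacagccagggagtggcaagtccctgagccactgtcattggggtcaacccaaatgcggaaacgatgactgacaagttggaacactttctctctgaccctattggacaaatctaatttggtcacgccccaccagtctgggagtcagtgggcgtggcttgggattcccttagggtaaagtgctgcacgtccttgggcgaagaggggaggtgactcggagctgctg

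The arrays were checked against their labels. Tnc read 10.72, 10.22 and 10.02 in wild type and 9.64, 9.76 and 9.47 in knockout, a difference of -0.69 (exact two-sided permutation p = 0.1, the smallest that 3 against 3 arrays allow). By limma its unadjusted p was 0.00380 and its adjusted p 1.0. The groups did not overlap, but the knockout signal was still 61.8% of wild type, and whether its probes lie in the removed part was not tested. A guide to background was taken as 6.14, below which 95% of 1190 receptor genes of the olfactory and vomeronasal families lay. Neuronal, radial glial and lumbar Hox markers were all above the guide, with medians of 12.69, 11.53 and 10.39. Erythroid markers were above it for 4 of 6 and dorsal root ganglion markers for 1 of 2 measured. Y-linked genes averaged 8.20 and 7.86 in knockout replicates 1 and 3, against 4.32 to 4.48 in the other 4 arrays, so the groups also differ in sex as read from the arrays. Per-array medians of the whole table lay between 6.96 and 7.10. With 6 arrays the precision is limited, and p-values measure the spread between these samples only.

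Across all 62 genes the level ranged from 4.75 to 13.01, with a median of 10.58 against 7.89 over all genes. The median level was 10.45 in complex I, 10.92 in complex II, 10.63 in complex III and 10.78 in complex IV. Probes of different genes respond differently, so these figures describe array signal and do not rank amounts of transcript. Of the 62, 60 lay above the background guide of 6.14. The exceptions were Cox8b at 5.78 and Cox7b2 at 4.75, the muscle and testis forms of their subunits. All members of complexes I, II and III lay above the guide. The lowest was Ndufb10 at 7.90 in complex I, Sdhd at 10.16 in complex II and Uqcr10 at 9.39 in complex III. The highest were Ndufc2 at 12.62, Sdhc at 11.75, Uqcrb at 12.41 and, in complex IV, Cox6c at 13.01.

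**Figure D1:**
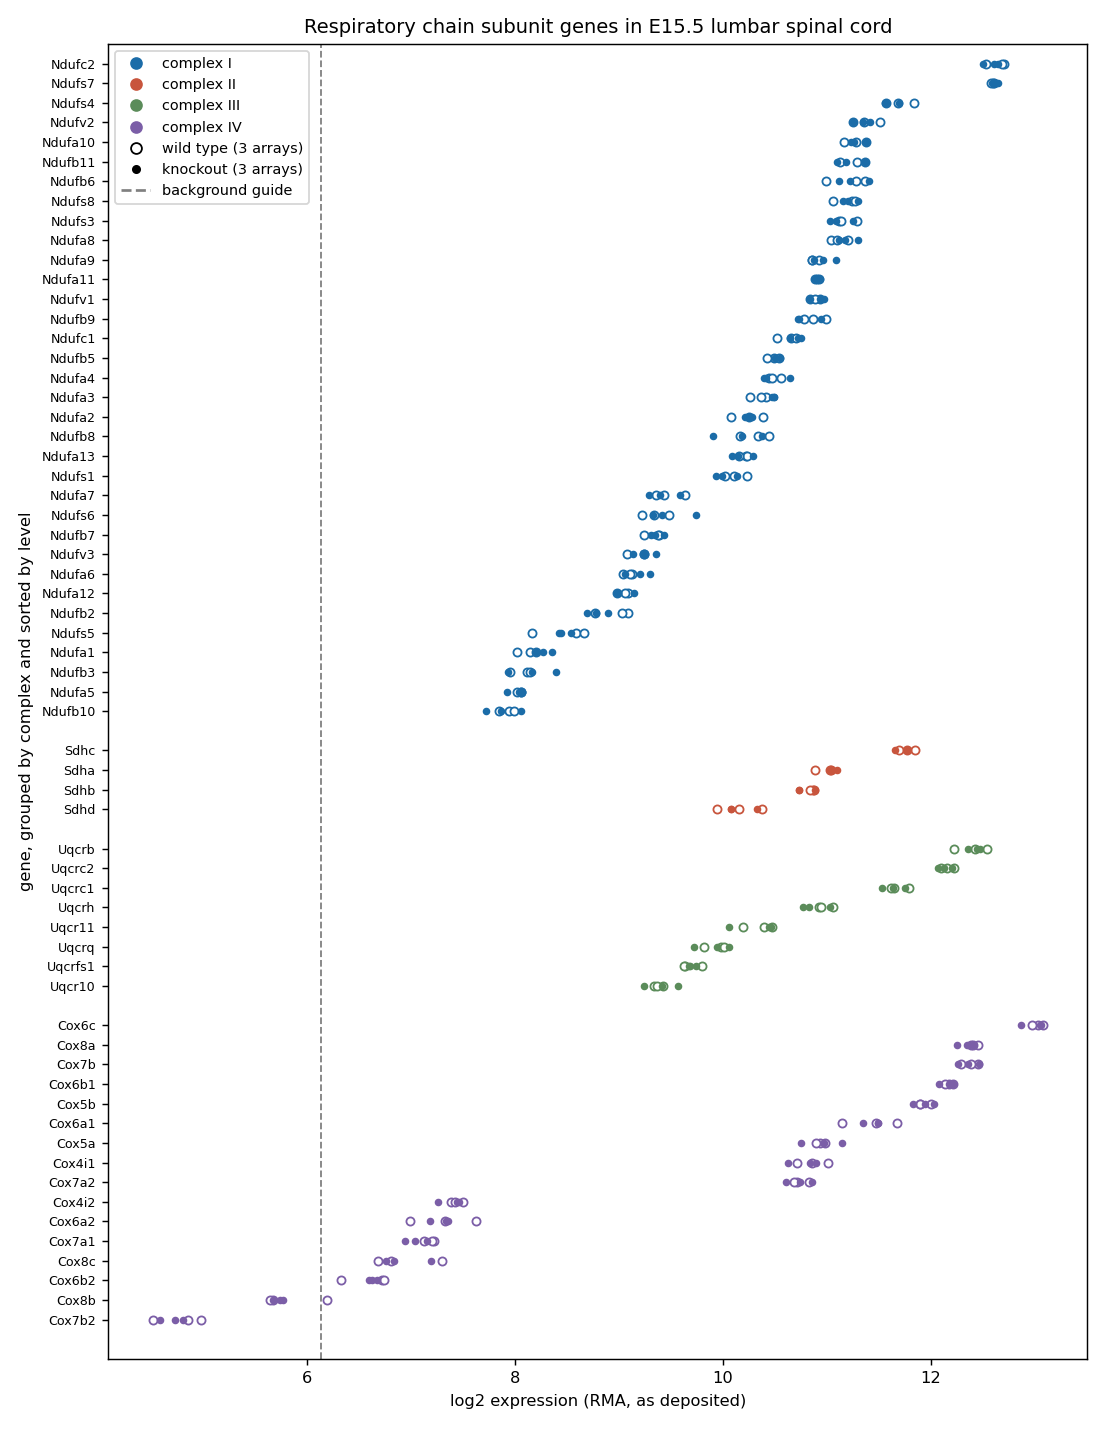
Deposited log2 expression (horizontal axis) of the 62 genes, grouped by complex and sorted by level, with 3 wild-type arrays as open and 3 knockout arrays as filled points, and the background guide of 6.14 as a dashed line. Complexes I to III lie wholly above the guide, and only Cox8b and Cox7b2 of complex IV have means below it.

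No subunit gene of any complex passed the test of a difference between Tnc knockout and wild type. With limma and Benjamini-Hochberg adjustment over all genes, 0 of 62 passed an adjusted p of 0.05, where 0.00% of all genes did. An unadjusted p under 0.05 was also reached by 0 of 62, against 1.70% of all genes. The groups did not overlap for 1 of 62, against 5.82% of all genes. The knockout arrays lay wholly above for that 1 gene (3.18% of all genes) and wholly below for 0 (2.64%). A difference of over 0.1 on the log2 scale was seen for 9 of 62 (23.2% of all genes) and of over 0.2 for 0 (3.70%). Differences ran from -0.17 (Ndufb2) to 0.15 (Ndufa1) on the log2 scale, with a median of -0.00629 beside -0.00688 over all genes. Of the 62, 26 were higher (46.4% of all genes) and 36 lower (53.6%). With 1 array left out, 18 to 37 were higher. The difference was smaller than the gene's own pooled within-group SD for 51 of 62 (82.3%, against 80.6% of all genes). The 95% intervals, taken gene by gene, reached from -0.46 to 0.43. A 1.5-fold change in either direction lay outside all 62 intervals, and 51 of them lay within ±0.32 on the log2 scale. Weighting the arrays by their quality put most weight on wild-type replicate 2. It gave 15 of 62 a limma unadjusted p under 0.05, against 21.0% of all genes in either direction. Of the 15, 14 were lower in knockout. With these weights 46 of 62 were lower, against 52.9% of all genes, and again 0 of the 62 passed the adjusted threshold.

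**Figure D2:**
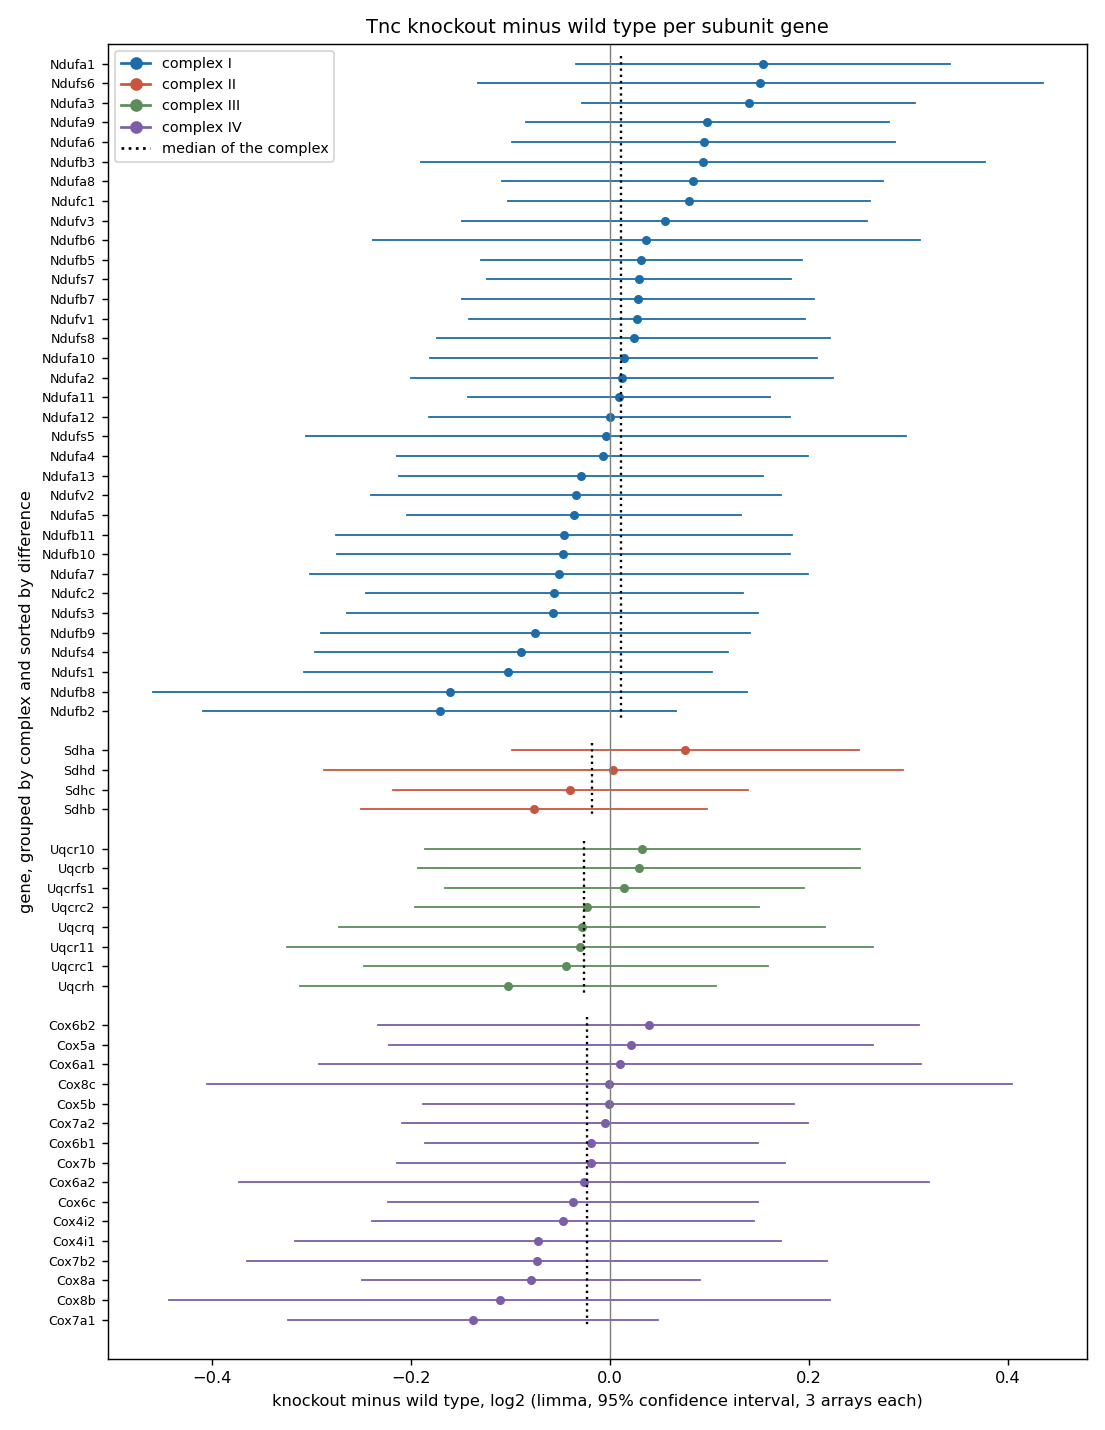
Knockout minus wild type on the log2 scale (horizontal axis) for each gene, grouped by complex and sorted by difference, with points for the limma estimate, lines for its 95% confidence interval and a dotted line for the median of each complex. Every interval crosses 0, and the 4 medians lie between -0.026 and 0.011.

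Compared by complex, the median difference was 0.011 for complex I, -0.018 for complex II, -0.026 for complex III and -0.023 for complex IV. These values are no larger than the spread of the same medians between arrays of a group, whose SD was 0.070, 0.055, 0.062 and 0.040. Of the knockout arrays only replicate 2 lacks Y-linked expression, like wild type, so a sex term compares that array alone with wild type. The medians were then -0.025, -0.10, -0.094 and -0.090, larger than that SD for complexes II to IV, and they describe 1 knockout array. Without that term, the medians of complexes I to III did not keep their sign with 1 array left out. Complex I had 18 members higher and 16 lower in knockout, complex II 2 and 2, and complex III 3 and 5. Complex IV had 3 higher and 13 lower (81.2% lower, against 53.6% of all genes), and none of its members passed the test. Genes of a complex varied together over the arrays, so a count in 1 direction is not a count of independent observations, and the difference between complexes was not tested. With 1 array left out, 10 to 24 of 34 complex I genes were higher, the fewest without knockout replicate 1. In complex III 3 to 7 of 8 were lower, the fewest without knockout replicate 2 or wild-type replicate 2. In complex IV 9 to 12 of 16 were lower, each count below the 13 from all arrays and the fewest without knockout replicate 2.

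Within complex I, Ndufa3, a small accessory subunit of the membrane arm, was the only gene whose groups separated. It read 10.26, 10.41 and 10.37 in wild type and 10.49, 10.47 and 10.50 in knockout. All 3 knockout arrays lay above all 3 wild-type arrays, by a narrow margin. The difference was 0.14 (95% interval -0.028 to 0.31, limma unadjusted p = 0.0912, adjusted p = 1.0), which is 110% of wild type. Ndufa1, an X-linked accessory subunit needed for assembly of the membrane arm, had the highest difference at 0.15 and read 8.14, 8.21 and 8.02 in wild type and 8.35, 8.21 and 8.27 in knockout. Its groups met, with replicate 2 of both genotypes at the same value to 2 decimals. Ndufs6, a zinc-binding accessory subunit near the NADH module, differed by 0.15 and read 9.22, 9.48 and 9.34 in wild type and 9.75, 9.42 and 9.33 in knockout. Here knockout replicate 1 alone stood high, and the other 2 knockout arrays fell inside the wild-type range. At the low end, Ndufb2, a membrane-arm accessory subunit, read 9.08, 9.03 and 8.77 in wild type and 8.90, 8.69 and 8.78 in knockout, a difference of -0.17 (unadjusted p = 0.135). Wild-type replicate 3 was below knockout replicates 1 and 3. Ndufb8, another accessory subunit of the membrane arm, read 10.34, 10.45 and 10.16 in wild type and 10.37, 9.91 and 10.18 in knockout, and knockout replicate 1 was higher than wild-type replicate 1 although the difference of means was -0.16. That difference ran from -0.27 to -0.038 with 1 array left out. With a sex term it was -0.41, which is knockout replicate 2 alone against the mean of the wild-type arrays. Ndufs6 and Ndufb8 were singled out after their values were seen.

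In the catalytic core of complex I the differences ran from -0.10 to 0.029. The core subunits carry the flavin and the iron-sulphur clusters that lead electrons to ubiquinone. Ndufv1, which binds NADH and the flavin, differed by 0.027 (interval -0.14 to 0.20), and its partner Ndufv2 by -0.034. Ndufs1, the largest iron-sulphur subunit, read 10.23, 10.11 and 10.02 in wild type and 10.14, 9.99 and 9.93 in knockout, a difference of -0.10 (interval -0.31 to 0.10) with overlapping groups. Ndufs3, Ndufs7 and Ndufs8, core subunits of the arm next to the membrane, differed by -0.058, 0.029 and 0.024. Ndufs7, which holds the last iron-sulphur cluster before ubiquinone, was among the most constant of the genes, with 12.60, 12.61 and 12.58 in wild type and 12.65, 12.60 and 12.63 in knockout, a span of 0.071 over the 6 arrays. Ndufa11, in the brighter of its 2 rows (10.91, against 9.74 in the other), had the smallest pooled SD of the 62, 0.0191.

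Of the 4 genes of complex II none passed the test. Sdha, the flavoprotein that oxidises succinate, read 11.04, 10.88 and 11.03 in wild type and 11.05, 11.04 and 11.10 in knockout, a difference of 0.075 (interval -0.099 to 0.25). Sdhb, the iron-sulphur subunit, read 10.87, 10.87 and 10.83 in wild type and 10.89, 10.73 and 10.73 in knockout, a difference of -0.076 (interval -0.25 to 0.098). The catalytic pair thus had estimates of opposite sign, each with overlapping groups. The membrane anchors Sdhc and Sdhd differed by -0.040 and 0.00333. Sdhd was the most variable of the 4 and read 9.94, 10.38 and 10.16 in wild type and 10.33, 10.08 and 10.08 in knockout, with wild-type replicates 1 and 2 at the ends of its range.

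No gene of complex III passed the test, and its groups overlapped throughout. Uqcrfs1, the Rieske iron-sulphur protein, differed by 0.014 (interval -0.17 to 0.19), and the core proteins Uqcrc1 and Uqcrc2 by -0.045 and -0.023. Uqcrh, the hinge protein that helps cytochrome c1 meet cytochrome c, had the lowest difference at -0.10 and read 10.92, 11.06 and 10.95 in wild type and 11.03, 10.83 and 10.77 in knockout. Knockout replicate 1 lay inside the wild-type range there, and the other 2 knockout arrays lay below it. Uqcr10, a small membrane subunit, had the highest at 0.033 and read 9.34, 9.42 and 9.37 in wild type and 9.42, 9.24 and 9.57 in knockout, with knockout arrays at both ends of its range.

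In complex IV the widely expressed forms and the tissue-restricted forms were set side by side. For each subunit the widely expressed form gave the brighter signal, and the pairs are described only as array signal because each gene has its own probes. Cox4i1, the common form of the largest nuclear subunit, was 10.86 ± 0.15 in wild type against 10.79 ± 0.14 in knockout (mean ± SD, n = 3, as for the pairs that follow), and its lung form Cox4i2 was 7.43 ± 0.058 in wild type against 7.39 ± 0.11 in knockout. Cox6a1 was 11.43 ± 0.27 in wild type against 11.44 ± 0.082 in knockout, and its heart and muscle form Cox6a2 was 7.32 ± 0.32 in wild type against 7.29 ± 0.097 in knockout. For the next pair, Cox7a2 was 10.74 ± 0.073 in wild type against 10.74 ± 0.13 in knockout and the heart and muscle form Cox7a1 was 7.18 ± 0.051 in wild type against 7.04 ± 0.11 in knockout. Neither form of these 3 subunits separated the groups. The remaining common forms differed by -0.019 (Cox6b1), -0.019 (Cox7b) and -0.079 (Cox8a). The testis forms Cox6b2, Cox7b2 and Cox8c differed by 0.039, -0.073 and -0.000594, and the muscle form Cox8b by -0.11. Cox7a1 had the lowest difference of complex IV at -0.14 (interval -0.32 to 0.048, unadjusted p = 0.126) and read 7.12, 7.22 and 7.20 in wild type and 7.15, 6.94 and 7.04 in knockout. Knockout replicate 1 overlapped the wild-type values, and the other 2 knockout arrays lay below them. Cox6b2 had the highest at 0.039. Ndufa4, counted with complex IV in place of complex I, differed by -0.00749 and left the median of complex IV at -0.019.

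**Figure D3:**
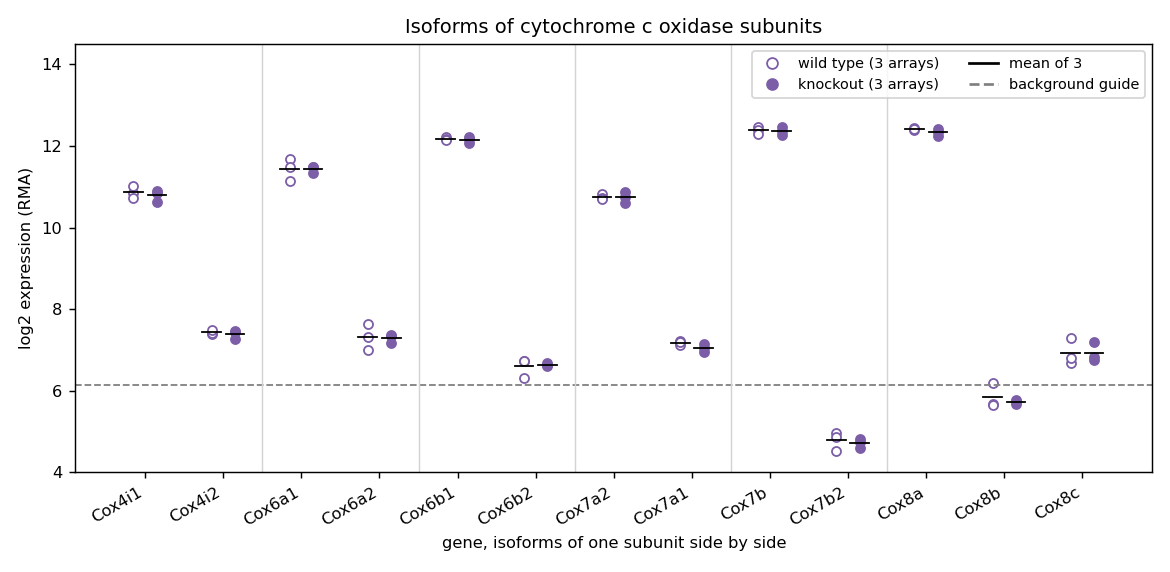
Deposited log2 expression (vertical axis) of complex IV isoform genes, with 3 wild-type arrays as open points, 3 knockout arrays as filled points and a bar at each mean, and the background guide of 6.14 as a dashed line. The common forms have means of 10.74 or more, the tissue forms of 7.41 or less, and in every gene the groups overlap.

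The 62 genes were as steady between replicates as most genes. Their pooled within-group SD had a median of 0.10, against 0.12 over all genes and 0.11 over genes above the background guide. By complex the median SD was 0.10, 0.070, 0.11 and 0.12 for I to IV. The widest SD in complex IV belonged to Cox8c, at 0.28. The 7 tissue forms, a split made after the values were seen, had a median SD of 0.19, and the other 9 genes of complex IV had 0.094.

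The subunit genes shifted together between arrays of 1 genotype. Knockout replicate 1 was above the gene's own mean over the 6 arrays for 55 of 62 genes (88.7%, against 49.9% of all genes), among them 33 of 34 in complex I. It exceeded both other knockout arrays for 46 of 62, against 35.0% of all genes. Knockout replicate 2 was above the gene's mean for only 13 (21.0%, against 46.6%), and knockout replicate 3 for 26. Among the wild-type arrays, replicate 2 was above the mean for 49 (79.0%, against 51.7%), replicate 1 for 33 and replicate 3 for 16 (25.8%, against 55.8%). Each group therefore held an array with most genes high and an array with most genes low. Genes above the background guide, as 60 of the 62 are, are a closer comparison than all genes. Their shares above the mean were 55.8% and 49.1% in knockout replicates 1 and 2, and 55.3% and 46.5% in wild-type replicates 2 and 3. The median gap between knockout replicates 1 and 2 was 0.13 over the 62 genes, against 0.00307 over all genes. The gap between wild-type replicates 2 and 3 was 0.093, against -0.016. Over genes above the background guide the median deviation from the gene's mean was 0.0107 in wild-type replicate 2 and -0.0100 in wild-type replicate 3. These pairs of arrays were picked after their values were seen, as those farthest apart by these counts, and fewer cells of a type and less RNA per cell cannot be told apart in whole tissue.

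**Figure D4:**
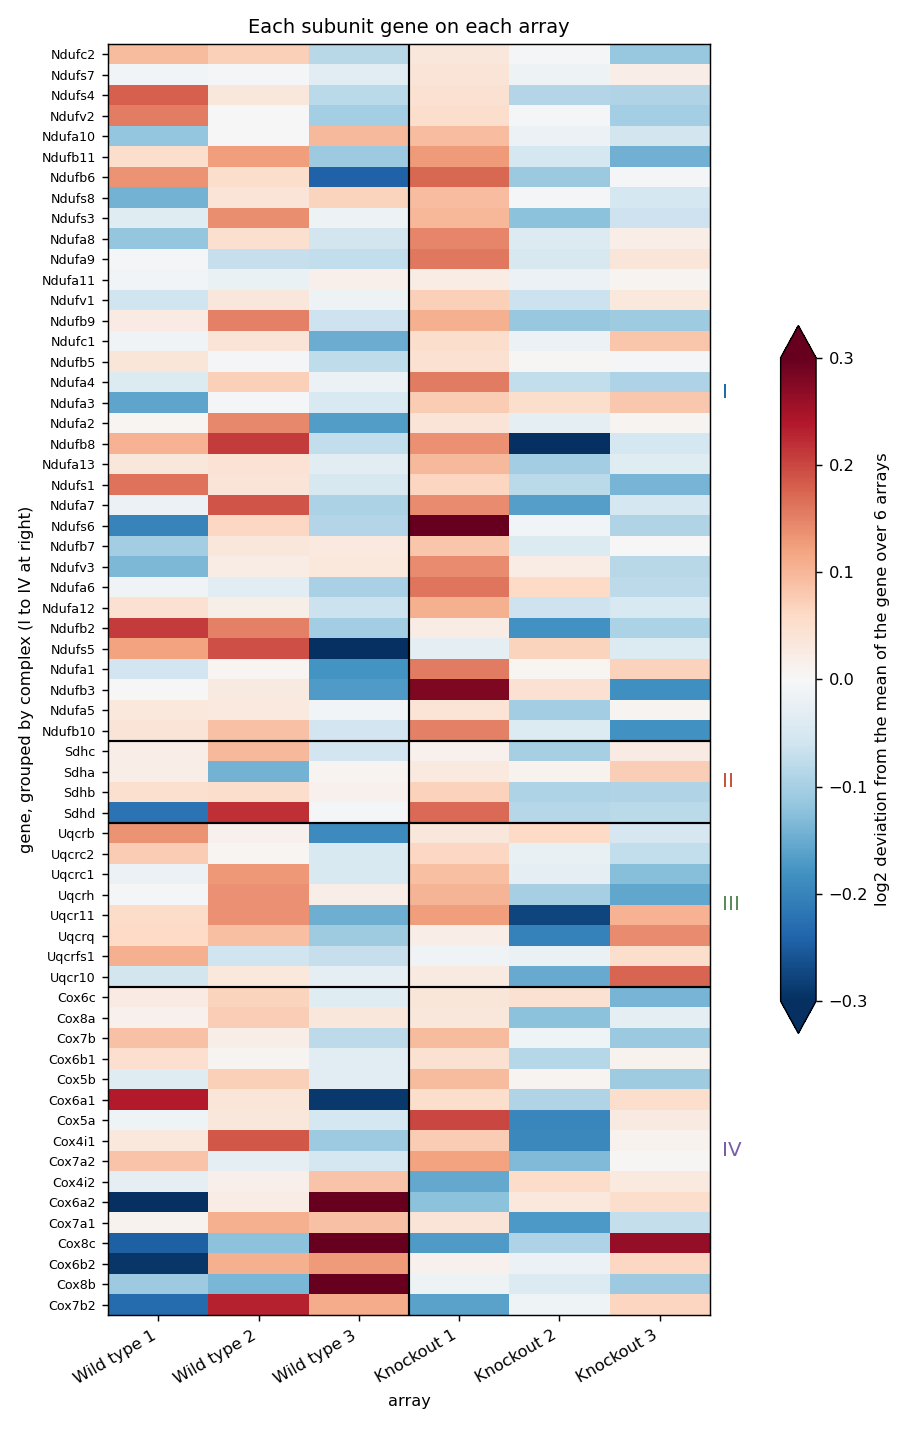
Log2 deviation of each gene (rows, grouped by complex) from its own mean over 6 arrays (columns), red above and blue below, with the colour scale ending at ±0.3. The column of knockout replicate 1 is above the mean for 55 of 62 genes and that of knockout replicate 2 for 13, while the tissue forms of complex IV at the bottom are above it in wild-type replicate 3.

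The tissue forms of complex IV did not share this array pattern. All 7 of 7 were above their means in wild-type replicate 3, 1 of 7 in wild-type replicate 1 and 2 of 7 in knockout replicate 1. The other 9 genes of complex IV gave 1, 7 and 9 of 9 in the same arrays. Cox6a2 read 6.99, 7.33 and 7.63 in wild type and 7.18, 7.33 and 7.36 in knockout. Cox8b read 5.67, 5.64 and 6.19 in wild type and 5.77, 5.74 and 5.67 in knockout, with wild-type replicate 3 the only array above the background guide. Genes at or below that guide moved in the same way, 81.9% of 5254 being above their means in wild-type replicate 3 and 24.0% in wild-type replicate 1. Skeletal muscle markers did so too, 10 of 10 in wild-type replicate 3 and 1 of 10 in wild-type replicate 1, with levels from 5.56 to 7.94. Their part in the signal of the tissue forms was not tested. Of the defining muscle markers, embryonic myosin Myh3 and the myosin light chain Mylpf had means below the guide, the only 2 of the 10. The median difference of the 10 was 0.00176, with 5 higher and 5 lower in knockout. The heart markers lay between 6.01 and 6.81, and the brown fat markers, Ucp1 among them, were all below the guide. In wild-type replicate 3, 4 of 4 heart and 3 of 3 brown fat markers were also above their means. In wild-type replicate 1 these counts were 3 of 4 and 1 of 3.

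Some other mitochondrial gene lists had a similar array pattern, and others did not. Assembly factors of complex I were above their means in 13 of 13 cases in knockout replicate 1 and in 0 of 13 in wild-type replicate 3. Mitochondrial ribosomal protein genes, a set of 77, gave 68 and 22 of 77. For the ATP synthase the counts were 14 and 5 of 15. Assembly factors of complex IV were above their means for 12 of 16 in knockout replicate 1, 8 in wild-type replicate 3 and 9 in knockout replicate 2, and lowest in knockout replicate 3 with 3. Genes of the tricarboxylic acid cycle gave 11, 4 and 8 of 13 in the same 3 arrays, and 3 in knockout replicate 3 and 3 in wild-type replicate 1.

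**Figure D5:**
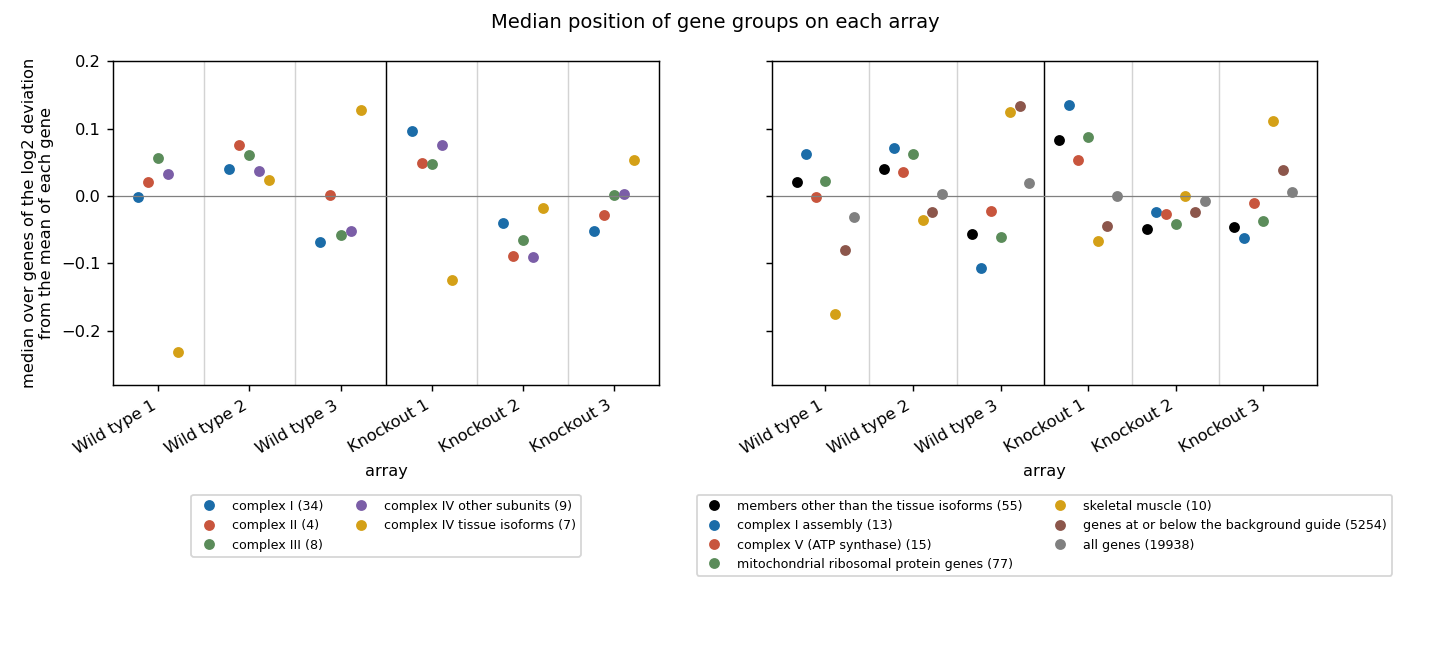
Median over the genes of a group of the log2 deviation from each gene's own mean (vertical axis) on the 6 arrays, with complexes I to IV at left and other gene groups at right, the number of genes in brackets. The 55 members other than the tissue forms, complex I assembly factors and mitochondrial ribosomal protein genes are highest in knockout replicate 1 and lowest in wild-type replicate 3 (right), where the tissue forms of complex IV, muscle markers and genes at or below the background guide are highest.

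None of the other energy metabolism genes compared passed the adjusted threshold, neither higher nor lower. The lists held 15 measured genes of the ATP synthase, 13, 4, 6 and 16 assembly factors of complexes I to IV, 13 enzymes of the tricarboxylic acid cycle, 14 of glycolysis, 12 regulators of mitochondrial biogenesis and 6 subunit or cytochrome c genes outside the symbol patterns. Their median differences were -0.00447 for the ATP synthase, 0.00126 for the tricarboxylic acid cycle, 0.042 for glycolysis and 0.027 for the regulators. Among assembly factors the medians were 0.017, -0.10, -0.052 and 0.00540 for complexes I to IV. Of the 99 genes, 7 lay wholly above and 4 wholly below wild type in knockout (3.18% and 2.64% of all genes). Uqcc2, an assembly factor of complex III, was the only 1 of the 99 with an unadjusted p under 0.05, a share of 1.01% against 1.70% of all genes. It read 10.75, 10.80 and 10.63 in wild type and 10.60, 10.48 and 10.49 in knockout, and every knockout array lay below every wild-type array. Its difference was -0.20 (interval -0.38 to -0.017, limma unadjusted p = 0.0361, adjusted p = 1.0). Lyrm7, which matures the Rieske protein, differed by 0.10. The complex I factors Ndufaf1 and Foxred1 differed by 0.077 and 0.071, and all 4 factors of complex II were lower, led by Sdhaf3 at -0.12 and Sdhaf1 at -0.088. Cox11 and Cox14, which serve complex IV, differed by 0.093 and -0.14. Atp5g3 and Atp5b of the ATP synthase differed by 0.064 and 0.053, and the cycle enzymes Cs and Idh2 by 0.091 and -0.087. In glycolysis, the neuronal enolase Eno2 differed by 0.19 and Tpi1 by 0.16, each with the knockout arrays above the wild-type arrays. Cycs, the cytochrome c that links complexes III and IV, differed by 0.092, and Ndufab1, the mitochondrial acyl carrier protein, by 0.079. The coactivator genes Ppargc1b and Pprc1 differed by 0.073 and 0.072.

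Chromosomes were examined because Tnc lies on chromosome 4 and the groups differ in sex. Chromosome 4 carries 4 of the 62 genes. Ndufb6, Ndufs5, Sdhb and Uqcrh differed by 0.037, -0.00369, -0.076 and -0.10, all with overlapping groups. The X chromosome carries Ndufa1, Ndufb11 and Cox7b, at 0.15, -0.046 and -0.019. Ndufa1 was higher in the 2 knockout arrays with Y-linked expression (8.35 and 8.27) than in knockout replicate 2 (8.21). In their brightest rows Ndufb11 and Cox7b were highest in knockout replicate 1 and lowest in knockout replicate 3, which share that expression. Their other rows, at -0.087 and -0.12, were highest in wild-type replicates 2 (11.04) and 1 (11.34), and also lowest in knockout replicate 3. Which of the rows reads the X-linked gene was not tested. A term for sex in the fit leaves knockout replicate 2 as the only knockout array without Y-linked expression. With it, Ndufa1 and the brightest rows of Ndufb11 and Cox7b differed by 0.083, -0.076 and -0.023.

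For 9 of the 62 genes the table held several rows, 19 in all, which may cover different copies or parts of a gene. Near-identical copies elsewhere in the genome could share signal with them, so their values are less certain. The brightest row, used above, and the other rows gave the same sign for 8 of the 9 and opposite signs for Ndufa11, at 0.0089 and -0.011. For Cox7b the brightest row differed by -0.019 at a level of 12.37, and the second row by -0.12 at a level of 11.07. The largest gap otherwise was that of Ndufc1, at 0.079 and 0.018.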

How the data were processed

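Total RNA of 6 samples of lumbar spinal cord was measured on Affymetrix arrays. The deposited table holds log2 values that the authors made with RMA (version unstated), per the submitters' processing notes. Its 35557 rows were named through the platform annotation: 21789 carry 1 symbol, 1621 several (not used) and 12147 are not listed. The brightest row per symbol gave 19938 genes, fitted with limma 3.58.1 in R 4.3.3 (lmFit, eBayes, group only) and adjusted by Benjamini-Hochberg over all of them. The same code was tested on simulated data. Cox7c and Ndufb4 share rows with other symbols and were not analysed here.

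Genes were named by rule: in each complex the highest and lowest difference, genes with separated groups or an unadjusted p under 0.05, core subunits, complex IV isoforms, genes on chromosomes 4 and X, and the 2 of smallest p in each pathway list. Ndufs6, Ndufb8, Ndufa11, Ndufa4, Ndufc1 and the genes of highest and lowest level were chosen after their values were seen. The members and lists were chosen with earlier results of these data known. Alternatives left out each array, filtered dim genes (25th percentile or median level), or changed the variance model, array weights, normalization, choice of row, replicate block or sex term. Promoter windows and gene names come from RefSeq GRCm38.p6.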

Additional observations from a re-analysis of the deposited data

How the results depend on the processing

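No subunit gene passed an adjusted p of 0.05 (limma, Benjamini-Hochberg) under any alternative, the smallest being 0.108. Over all genes the count passing was 0 to 4 with 1 array left out, and 4 without knockout replicate 2. An unadjusted p under 0.05 was reached by Ndufb2 without wild-type replicate 3 and by Ndufa3 with an intensity trend. With array weights 15 of 62 reached it, and under the others, the sex term aside, 0 of those fitted did. The sex term sets 1 knockout array against wild type, so only its estimates are given. The estimates themselves were unstable: 40 of 62 changed sign when some array was left out. Array weights ran from 0.27 for wild-type replicate 3 to 6.40 for wild-type replicate 2, and were 2.14 for knockout replicate 2. They turned 14 of the 62, and the cause was not tested. A sex term, which sets knockout replicate 2 alone against wild type, turned 17. With array weights the median difference was -0.12 for complex II and -0.10 for complex III. With a sex term, and so for knockout replicate 2 alone against wild type, it was -0.10, -0.094 and -0.090 for complexes II, III and IV. With 1 array left out the median ran from -0.026 to 0.032 in complex I, -0.069 to 0.023 in II, -0.069 to 0.018 in III and -0.074 to -0.012 in IV, so that of complex IV alone kept its sign. Among genes at or above the median level, where the 7 tissue forms are not tested, 7 of 9 complex IV genes were lower.

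Under these alternatives the genes that changed sign were as follows. Array weights gave -0.13 (Ndufa2), -0.021 (Ndufa8), -0.072 (Ndufb6), -0.029 (Ndufb7), -0.0099 (Ndufc1), -0.023 (Ndufs8), -0.040 (Ndufv1), -0.21 (Sdhd), -0.070 (Uqcr10), -0.088 (Cox5a), -0.065 (Cox6a1), -0.080 (Cox6b2), 0.066 (Cox8b), 0.073 (Cox8c). Renewed quantile normalization gave 0.0021 (Ndufa12), 0.0046 (Ndufs5). The mean and the most variable of its rows gave -0.00091 and -0.011 for Ndufa11. A sex term gave -0.012 (Ndufa10), -0.014 (Ndufa11), -0.023 (Ndufa2), -0.093 (Ndufb6), -0.027 (Ndufb7), 0.065 (Ndufs5), -0.00092 (Ndufs7), -0.050 (Ndufv1), -0.083 (Sdhd), -0.14 (Uqcr10), -0.014 (Uqcrfs1), 0.030 (Cox4i2), -0.18 (Cox5a), 0.0076 (Cox5b), -0.086 (Cox6a1), 0.018 (Cox6a2), 0.028 (Cox6c). With 1 array left out, 22 of the 40 genes are among those named by rule, and their ranges were -0.15 to 0.0065 (Cox4i1), -0.086 to 0.017 (Cox4i2), -0.13 to 0.13 (Cox6a1), -0.19 to 0.13 (Cox6a2), -0.047 to 0.019 (Cox6b1), -0.098 to 0.11 (Cox6b2), -0.067 to 0.060 (Cox7a2), -0.072 to 0.031 (Cox7b), -0.21 to 0.024 (Cox7b2), -0.21 to 0.068 (Cox8b), -0.13 to 0.18 (Cox8c), -0.12 to 0.015 (Ndufb11), -0.075 to 0.11 (Ndufb6), -0.16 to 0.092 (Ndufs5), -0.042 to 0.063 (Ndufs8), -0.0018 to 0.065 (Ndufv1), -0.094 to 0.034 (Ndufv2), -0.11 to 0.11 (Sdhd), -0.046 to 0.12 (Uqcr10), -0.10 to 0.0096 (Uqcrc1), -0.060 to 0.0084 (Uqcrc2), -0.016 to 0.071 (Uqcrfs1).

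Same-numbered replicates of the 2 genotypes were checked for pairing. Their deviations correlated by 0.345, -0.075 and 0.449 for numbers 1, 2 and 3, while pairs of unlike numbers ran from -0.47 to 0.283. Numbers 1 and 3 thus lay above every unlike pair, and number 2 did not. The sources used here do not say whether the numbers pair the samples, so the main fit left them unpaired. With the block 3.19% of all genes had a limma unadjusted p under 0.05, against 1.70% without it. In that fit, with the replicate number as a block, 0 genes passed, as without it. Each number holds 1 array of each genotype, so the block leaves every estimate unchanged and no sign could turn.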
